A study of Homo sapiens with 4 samples.

Results

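KMS28BM and KMS18 are human multiple myeloma cell lines that both carry t(4;14), and the comparison described here sets the 2 KMS28BM libraries of the series against its 2 KMS18 libraries. All 4 libraries of the series entered it, chosen by the cell line in their labels (K28BM or K18). In each line 1 library came from cells labelled control with the construct Luc and 1 from cells labelled PKCα knockdown (KDPKCa), so construct was a covariate. The question is which lineage, surface, signalling and metabolic genes set 2 lines of the same translocation class apart. All groups share the t(4;14) genotype, a bone marrow source and the cell type label plasma cell. The knockdown is described as stable. What the Luc construct is made of and whether either pool is a clone is not stated in the labels, and no untransduced cells were compared. The labels do not say whether the libraries of a line came from separate cultures, so the p-values measure only the spread between these libraries, which may be technical.

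Plasma cells are the antibody-secreting end stage of the B cell lineage. They normally shut down many B cell genes, and they expand the endoplasmic reticulum under control of IRF4, PRDM1 and XBP1. The t(4;14) translocation places NSD2, a histone methyltransferase gene, and usually FGFR3, a receptor tyrosine kinase gene, under immunoglobulin heavy chain enhancers. Myeloma lines of this class still differ in secondary changes, among them changes in cell cycle inhibitors and in regulators of NF-kB, a transcription factor family that plasma cells depend on for survival.

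Depth ran from 37940949 to 39507281 expected counts per library, and 11100 to 11591 genes per library reached 1 FPKM (fragments scaled to gene length and library size). Pairs of values below are given as Luc before KDPKCa. The immunoglobulin share of counts, taken without IGLL5, was 4.65% and 4.28% in KMS18 against 1.22% and 0.78% in KMS28BM. IGLL5, which overlaps IGLC1, held 1220 and 1218 counts in KMS18 against 214607 and 125984 in KMS28BM, so including it would narrow the gap. Plasma cell markers summed to 1989 and 1224 FPKM in the KMS18 libraries and to 1972 and 1173 FPKM in those of KMS28BM. In KMS28BM, markers of T, NK, myeloid, erythroid, stromal and endothelial cells were at or near 0, with summed levels of at most 3.7 FPKM per list. In KMS18 the highest of these sums were 10.6 and 27.6 FPKM for the T cell list, mostly CD3E (Luc 7.32, KDPKCa 20.9 FPKM), and 4 of its 13 members passed the filter on low counts. All 4 were lower in KMS28BM by 4-fold or more in the test described below, with a median log2 difference of -4.31. CD8A, CD4 and CD2 did not pass the filter. The myeloid list summed to 7.5 and 15.5 FPKM in KMS18. Of its 5 tested members, 3 were lower in KMS28BM by 4-fold or more and 1 was higher by 4-fold or more. The epithelial list summed to 291 and 208.9 FPKM in KMS18, nearly all of it EPCAM, and to 0.2 FPKM in each KMS28BM library, while KRT8 reached at most 2.11 FPKM. The part of such cells in any difference below was not tested. In bulk RNA such as this, fewer cells of a type and less RNA per cell cannot be told apart.

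Of 22187 genes measured, 14870 passed the filter on low counts and were tested with edgeR's quasi-likelihood test. At an adjusted p of 0.05 or less, 4555 genes were higher in KMS28BM (30.6%) and 4796 were lower (32.3%), so 62.9% differed between the lines. Such genes are called here. A 4-fold difference or more was called for 17.7%, with 1168 genes higher (7.85%) and 1457 lower (9.8%). Every one of the 9351 called genes moved the same way in the Luc pair of libraries and in the KDPKCa pair. Among the 5519 genes without a call, 68.8% did. The calls come from these same pairs, and disagreement between the pairs counts as spread in the test. The agreement of called genes is therefore largely fixed by the rule and is not a replication. Across the 14870 genes, the differences in the 2 constructs, which share no library, correlated with Pearson's r = 0.939, a description over genes that are not independent replicates. The median size of a 4-fold call was 4.17 on the log2 scale, against a median gap of 0.63 between the 2 constructs for the same genes. Of 12598 genes at 1 FPKM or more in at least 1 library, 40.5% had both KMS28BM values above both KMS18 values and 33.6% had both below. Because calls were this common, a gene list's count and its 4-fold share are set beside the background shares. A gene could pass the filter through the 2 libraries of 1 line alone. Such a gene, at or near 0 in the other line, had to differ by a large fold, in any list and over all genes. A high 4-fold share is therefore a description and no test of a list. Leaving out any 1 of the 4 libraries, in a model without construct, left between 2249 and 2389 genes called higher and between 2595 and 2797 called lower. In the same runs the direction of PRKCA turned without the KDPKCa library of KMS18 (log2 difference -0.12) and without the Luc library of KMS28BM (-0.90). Each of these runs leaves 1 line with 1 construct alone, so construct is mixed into the line difference. A call lost in them cannot be told apart from an effect of construct.

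**Figure D1:**
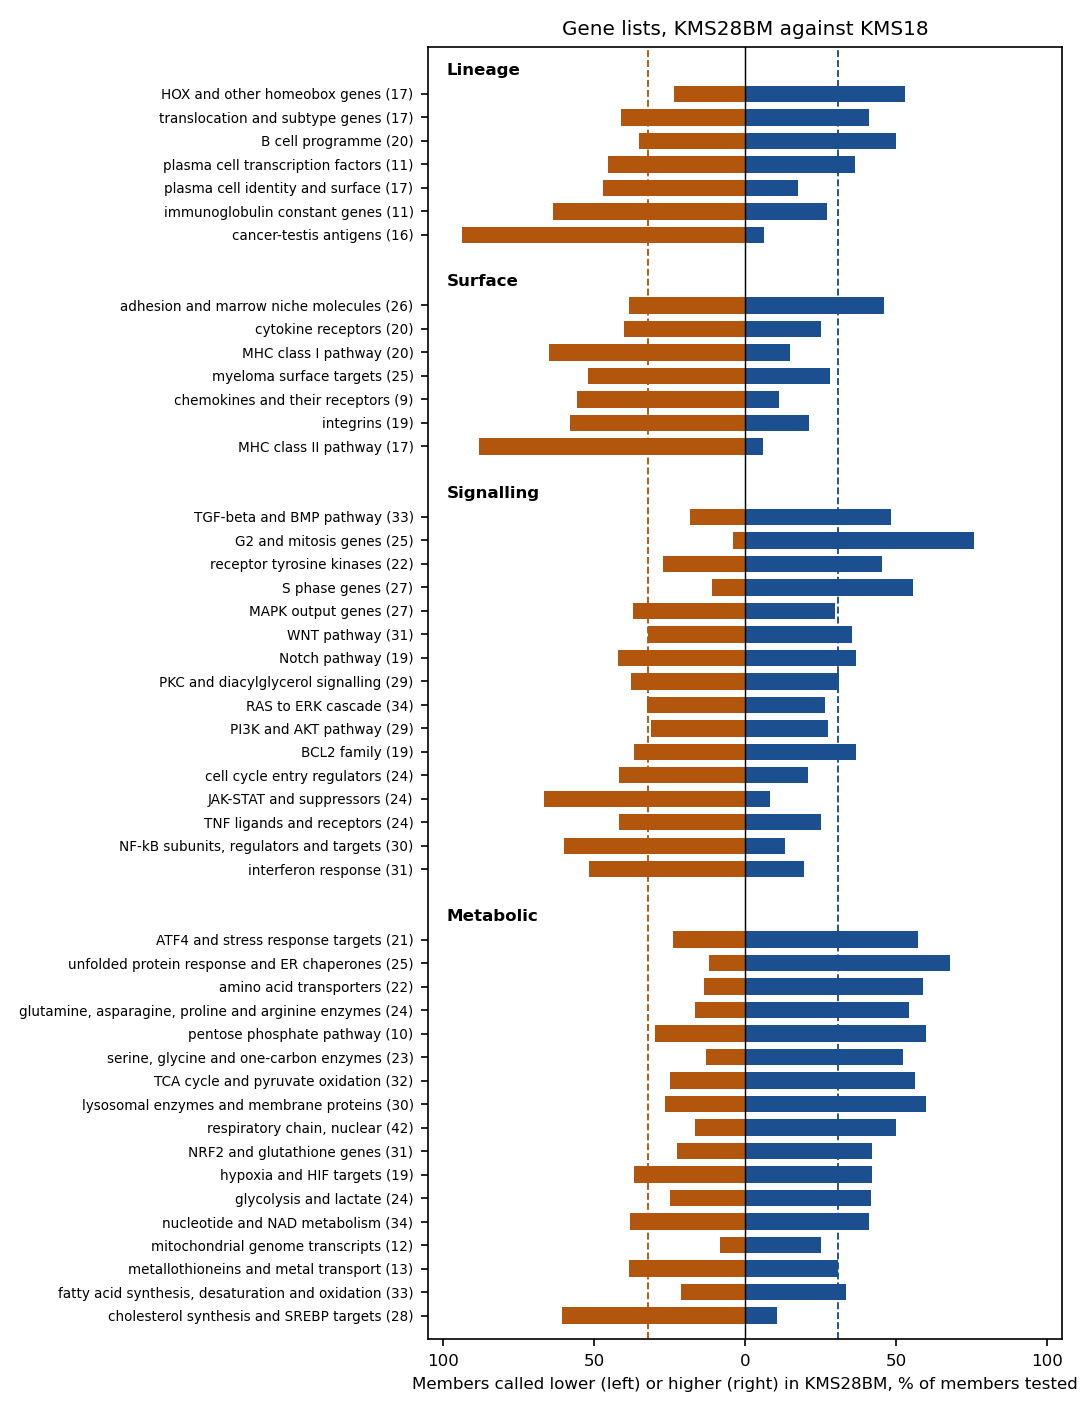
Share of tested members called higher (blue, right) or lower (brown, left) in KMS28BM for 47 gene lists grouped by theme, with the number tested in brackets; dashed lines mark the background of 30.6% higher and 32.3% lower over all tested genes. The cancer-testis and MHC class II lists reach furthest to the lower side, and the mitosis list and the unfolded protein response list furthest to the higher side.

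Lineage genes. The translocation targets were abundant in both lines. NSD2 stood at 246 and 184 FPKM in KMS18 against 172 and 112 in KMS28BM (log2 difference of KMS28BM minus KMS18 -0.49 ± 0.11, adjusted p = 0.00793, with the SE after ±). FGFR3 stood at 437 and 261 FPKM in KMS18 against 593 and 527 in KMS28BM (0.66 ± 0.16, adjusted p = 0.00864). NSD2 was lower and FGFR3 higher in KMS28BM within each construct, but the KMS18 KDPKCa value of NSD2 lay only just above the KMS28BM Luc value. The NSD2 call was lost when any 1 library was left out (adjusted p from 0.0739 to 0.612), and the FGFR3 call when any but the Luc library of KMS18 was (0.179 to 0.374). PRKCA, the gene of the targeted kinase PKCα, was lower in the KDPKCa library than in the Luc library of both lines and stood at 7.46 and 1.47 FPKM in KMS18 against 10.9 and 2.43 in KMS28BM (0.69 ± 0.11, adjusted p = 0.00141). Its call between lines was lost when any 1 library was left out. Those runs mix the knockdown of PRKCA itself into the line difference. The list of translocation and subtype genes had 7 members higher, 3 to 6 with any 1 library left out, and 7 lower of 17 tested. CCND2, a cyclin of G1 phase that is often the D-type cyclin of t(4;14) myeloma, was among the lower ones at 29.5 and 29.2 FPKM in KMS18 against 0 and 0.11 in KMS28BM (adjusted p = 1.09e-05). It was at or near 0 in both KMS28BM libraries. The expressed protein-coding genes around it, from TULP3 to RAD51AP1, were all called lower too, and CCND2 lies in a low stretch of chromosome 12 given below. These neighbours were named after their values were seen.

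Of the 3 plasma cell regulators introduced above, IRF4 and PRDM1 did not pass the test between lines and XBP1 was called slightly higher in KMS28BM. IRF4 stood at 125 and 62.3 FPKM in KMS18 against 113 and 90.8 in KMS28BM (log2 difference 0.10 ± 0.15, adjusted p = 0.574). PRDM1, the repressor that extinguishes B cell genes, stood at 52.8 and 34.7 FPKM in KMS18 against 46.4 and 42.5 in KMS28BM (0.00 ± 0.14, adjusted p = 0.982). The lines overlapped for both. XBP1, which drives the secretory programme, stood at 359.9 and 196 FPKM in KMS18 against 472 and 265 in KMS28BM (0.36 ± 0.10, adjusted p = 0.0162). Its lines overlapped too, and the call was lost when any 1 library was left out. Its direction turned without the KDPKCa library of KMS18 (-0.04) and without the Luc library of KMS28BM (-0.15). Those runs mix construct into the line difference, and XBP1 was lower in the KDPKCa library of both lines. SDC1, the surface proteoglycan CD138, MZB1 and JCHAIN did not pass the test either, with log2 differences of -0.18 ± 0.10, -0.17 ± 0.10 and 0.14 ± 0.13 (SE). A missed threshold does not show that these levels are equal. IRF4, PRDM1, SDC1, MZB1 and JCHAIN were named after their values were seen. POU2AF1, a B cell coactivator that plasma cells keep, was lower at 114 and 67.7 FPKM in KMS18 against 37.1 and 23.9 in KMS28BM (-1.64 ± 0.10, adjusted p = 1.67e-05). MEF2B, a transcription factor of germinal centre B cells, was higher at 0.68 and 0.62 FPKM in KMS18 against 12.1 and 16.4 in KMS28BM (4.18 ± 0.21, adjusted p = 8.76e-06). Both moved without overlap. Over the list of plasma cell transcription factors, 4 of 11 tested members were higher and 5 lower, with a median log2 difference of 0.00 against -0.02 over all genes. With any 1 library left out, 2 to 4 were called lower.

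B cell genes divided. Of 20 tested, 10 were higher and 7 lower, and 50% passed the 4-fold rule against 17.7% of all genes. CD79A and CD79B, which pair as the signalling chains of the B cell receptor, went opposite ways. CD79A stood at 0.48 and 0.46 FPKM in KMS18 against 9.89 and 6.72 in KMS28BM (3.98 ± 0.28, adjusted p = 3.43e-05). CD79B stood at 15.4 and 17.3 FPKM in KMS18 against 0 in both KMS28BM libraries, at least 224-fold lower when 3 counts per library are put in for 0. Neither line had both chains at 5 FPKM or more. BCL11A, a zinc finger factor of B cell development, was higher at 2.20 and 3.03 FPKM in KMS18 against 31.9 and 31.1 in KMS28BM (3.76 ± 0.16, adjusted p = 4.59e-06), and BANK1, a B cell scaffold protein among the top genes over all, stood at 0.34 and 0.33 FPKM in KMS18 against 51.8 and 72.9 in KMS28BM (7.55 ± 0.14, adjusted p = 2.52e-07). CD37, a B cell tetraspanin, was lower at 56.9 and 70.8 FPKM in KMS18 against 0.45 and 0.35 in KMS28BM (-7.86 ± 0.17, adjusted p = 2.87e-07). BTK, the kinase below the B cell receptor, was likewise lower at 12.3 and 15.8 FPKM in KMS18 against 0.18 and 0.28 in KMS28BM (-7.28 ± 0.27, adjusted p = 2.06e-06). PAX5, the B cell identity factor, was low in KMS18 (1.61 and 2.29 FPKM) and at 0 in both KMS28BM libraries (adjusted p = 8.98e-06). PAX5 was named after its values were seen. With any 1 library left out, 6 or 7 list members were called higher.

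The immunoglobulin genes separated the lines by gene. Lambda constant transcripts led in both: IGLC2, a lambda constant gene, stood at 10260.4 and 9098 FPKM in KMS18 against 15861 and 9826 in KMS28BM, with overlap between the lines. The leading variable genes differed. IGLV1-47 stood at 25921 and 27866 FPKM in KMS18 against 3.34 and 2.84 in KMS28BM (-13.18 ± 0.22, adjusted p = 2.52e-07). IGLV3-10 ran the other way at 1.27 and 6.72 FPKM in KMS18 against 10691 and 6857 in KMS28BM (11.01 ± 0.61, adjusted p = 1.18e-05). IGLV1-44 followed IGLV1-47 with 11506 and 11579 FPKM in KMS18 against 1.39 and 1.03 in KMS28BM. IGLV3-16 followed IGLV3-10 with 0 and 0.24 FPKM in KMS18 against 358 and 265 in KMS28BM. IGLC3 was lower in KMS28BM at 61713 and 53064 FPKM in KMS18 against 568 and 307 in KMS28BM (-7.19 ± 0.24, adjusted p = 1.34e-06). IGLL5, which overlaps IGLC1, was higher at 34.1 and 34.3 FPKM in KMS18 against 6016 and 3548 in KMS28BM (6.94 ± 0.24, adjusted p = 1.57e-06). Among heavy chains only IGHG2 passed 20 FPKM in any library, with 24.5 and 23.1 FPKM in KMS18 against 0.02 and 0.05 in KMS28BM, and no heavy chain constant gene passed 15 FPKM in KMS28BM. KMS18 also held kappa variable transcripts, IGKV3-15 at 1158 and 1179 FPKM in KMS18 against 0.13 and 0 in KMS28BM and IGKV1D-13 at 1305 and 1392 FPKM in KMS18 against 0 and 0.08 in KMS28BM, while IGKC, the kappa constant gene, was higher in KMS28BM at 164 and 89.8 FPKM in KMS18 against 846 and 708 in KMS28BM (2.77 ± 0.15, adjusted p = 1.06e-05). Variable and constant genes of 1 family are near copies, so the counting could split their reads and the order within a family is uncertain. IGLC2 was named after its values were seen.

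**Figure D2:**
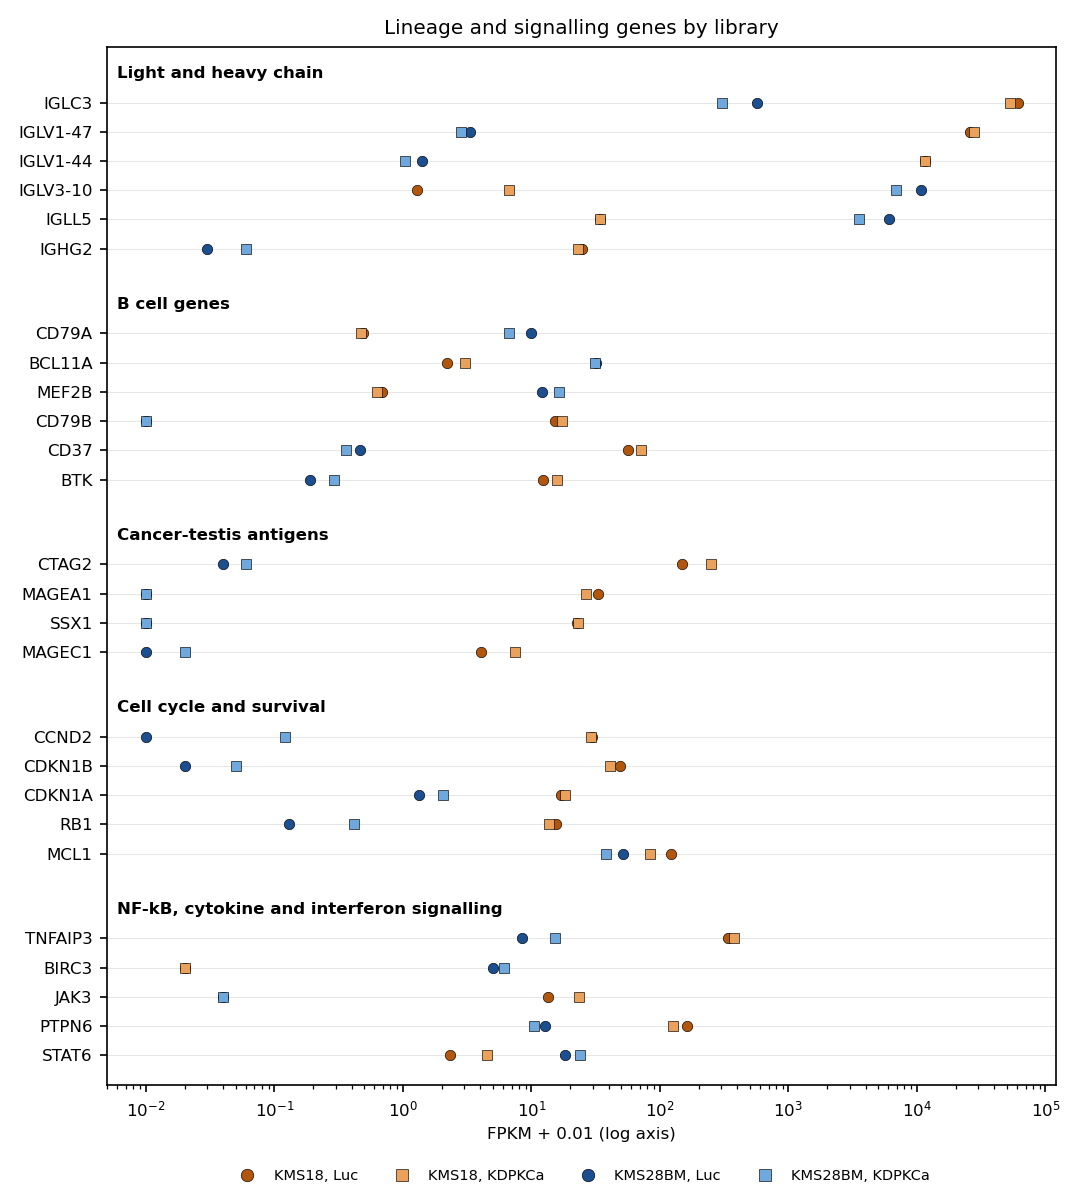
FPKM plus 0.01 on a log axis for lineage and signalling genes; each point is 1 library, with KMS18 in brown, KMS28BM in blue, Luc as circles and KDPKCa as squares, and a value of 0 is drawn at 0.01. IGLV1-47 and IGLV3-10 change places between the lines, and CD79B, MAGEA1 and SSX1 sit at 0 in both KMS28BM libraries.

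Cancer-testis antigens, proteins that are normally made by germ cells and appear in many tumours, were expressed in KMS18 and at or near 0 in KMS28BM. Of 35 listed, 16 passed the count filter, 15 of these were lower and all 15 by 4-fold or more. The other tested member, TEX15, was called higher in KMS28BM at a level near 0, with 0 in both KMS18 libraries against 0.09 and 0.07 FPKM in KMS28BM (adjusted p = 0.00145), and was named after its values were seen. The whole list summed to 363.1 and 477 FPKM in KMS18 and to 0.2 and 0.4 FPKM in KMS28BM. CTAG2, a relative of NY-ESO-1, stood at 149 and 252 FPKM in KMS18 against 0.03 and 0.05 in KMS28BM (adjusted p = 2.52e-07). MAGEA1 stood at 32.8 and 26.7 FPKM in KMS18 against 0 in both KMS28BM libraries, at least 579-fold lower on the 3-count floor. SSX1 stood at 22.8 and 22.9 FPKM in KMS18 against 0 in both KMS28BM libraries, at least 372-fold lower. MAGEA3 (51.8 and 55.5 FPKM in KMS18 against 0 in both KMS28BM libraries) and MAGEA6 (52.2 and 52.6 FPKM in KMS18 against 0 in both KMS28BM libraries) were also at 0 in KMS28BM, but they are near copies of each other. Members that passed the filter only through KMS18 had to differ, so the 15 of 16 is no test of the list. The count was 9 where the filter asked for 5 CPM in 2 libraries, since fewer members passed it.

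Surface genes. MHC class II genes had the lowest median of the surface lists. They encode the antigen presenting molecules of B cells and other professional antigen presenting cells. Their transcription depends on CIITA, a coactivator that does not bind DNA itself but docks on the RFX and NF-Y complexes, and these sit on conserved X and Y boxes just before the start of class II genes. Of 17 listed genes, all tested, 15 were lower in KMS28BM and 14 by 4-fold or more, with a median log2 difference of -6.17. HLA-DRA, the alpha chain of HLA-DR, stood at 2389.6 and 3265 FPKM in KMS18 against 0.91 and 4.31 in KMS28BM (-10.34 ± 0.43, adjusted p = 3.81e-06). CD74, the invariant chain that guards the peptide groove, stood at 7267 and 8842 FPKM in KMS18 against 5.63 and 51.8 in KMS28BM (-8.86 ± 0.78, adjusted p = 9.33e-05). HLA-DPB1 stood at 546 and 828 FPKM in KMS18 against 0.36 and 1.56 in KMS28BM (-9.76 ± 0.33, adjusted p = 1.57e-06). For each of the 3 genes all KMS18 values were far above all KMS28BM values, and in both lines the KDPKCa library was above the Luc library.

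The peptide editors followed. HLA-DMB, a chain of the HLA-DM editor, stood at 48.5 and 89.1 FPKM in KMS18 against 0.07 and 0.15 in KMS28BM (-9.73 ± 0.24, adjusted p = 4.25e-07). HLA-DMA, its partner, stood at 460.0 and 553 FPKM in KMS18 against 6.18 and 8.61 in KMS28BM (-6.17 ± 0.13, adjusted p = 2.73e-07). HLA-DOA, which modulates HLA-DM, stood at 28.5 and 46.8 FPKM in KMS18 against 0 and 0.01 in KMS28BM (adjusted p = 2.62e-07). The regulators were lower to unequal degrees. CIITA stood at 53.9 and 70.8 FPKM in KMS18 against 2.11 and 4.68 in KMS28BM (-4.39 ± 0.18, adjusted p = 3.43e-06). RFX5, the DNA-binding subunit of the RFX complex, stood at 120.4 and 135 FPKM in KMS18 against 67.9 and 59.9 in KMS28BM (-1.09 ± 0.12, adjusted p = 0.000218). RFXAP did not pass the test (log2 difference -0.43 ± 0.19, adjusted p = 0.0945), and RFXANK was called higher (0.44 ± 0.11, adjusted p = 0.0136), a call lost when any 1 library was left out. CIITA, RFX5, RFXAP and HLA-DMA were named after their values were seen. HLA genes have alternate copies in the annotation, so values were summed over copies and the split between HLA-DRB genes is uncertain.

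The promoters of 3 of these genes, which moved together, are shown with matches to the letters of the Y box core in capitals. The letters were GATTGG or, on the other strand, CCAATC. They were searched on both strands over the 150 bases before the RefSeq start (GRCh38.p14, minus strand of chromosome 6, 5′ to 3′ toward the start). HLA-DMA lies at chr6:32953098-32953247, HLA-DMB at chr6:32941029-32941178 and HLA-DOA at chr6:33009592-33009741.
HLA-DMA: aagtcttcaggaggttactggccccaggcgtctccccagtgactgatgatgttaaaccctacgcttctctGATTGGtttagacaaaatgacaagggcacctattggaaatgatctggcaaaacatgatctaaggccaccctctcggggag
HLA-DMB: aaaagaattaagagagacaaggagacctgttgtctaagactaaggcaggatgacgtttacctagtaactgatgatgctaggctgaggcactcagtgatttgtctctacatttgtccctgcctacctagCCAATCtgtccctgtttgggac
HLA-DOA: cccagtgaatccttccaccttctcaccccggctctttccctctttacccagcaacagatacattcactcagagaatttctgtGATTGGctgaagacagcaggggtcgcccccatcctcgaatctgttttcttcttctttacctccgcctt
The first base of the match lay 80 bases before the start in HLA-DMA, 22 in HLA-DMB, there on the reverse strand, and 68 in HLA-DOA. Of the 17 list members 14 had an entry, with 19 windows between them, and 8 windows, each of a different gene, held a match. Over all 35116 RefSeq windows of the same length, 10.7% held one. A match is a description of letters, not evidence that a factor was bound in these cells.

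MHC class I genes, which present peptides on nearly all cells, were lower but still abundant. Of 20 tested, 13 were lower and 3 higher, with a median of -0.59, but 1 member in each direction passed 4-fold. HLA-B stood at 2339 and 2363 FPKM in KMS18 against 671 and 916 in KMS28BM (-1.64 ± 0.14, adjusted p = 7.57e-05). HLA-E, a ligand of NK cell receptors, stood at 141 and 159.6 FPKM in KMS18 against 51.5 and 66.3 in KMS28BM (-1.44 ± 0.10, adjusted p = 3.52e-05). ULBP1, a stress ligand of the NK receptor NKG2D, was higher at 0.30 and 0.57 FPKM in KMS18 against 5.56 and 7.98 in KMS28BM (3.91 ± 0.20, adjusted p = 8.61e-06). The 13 dropped to between 4 and 9 when any 1 library was left out.

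**Figure D3:**
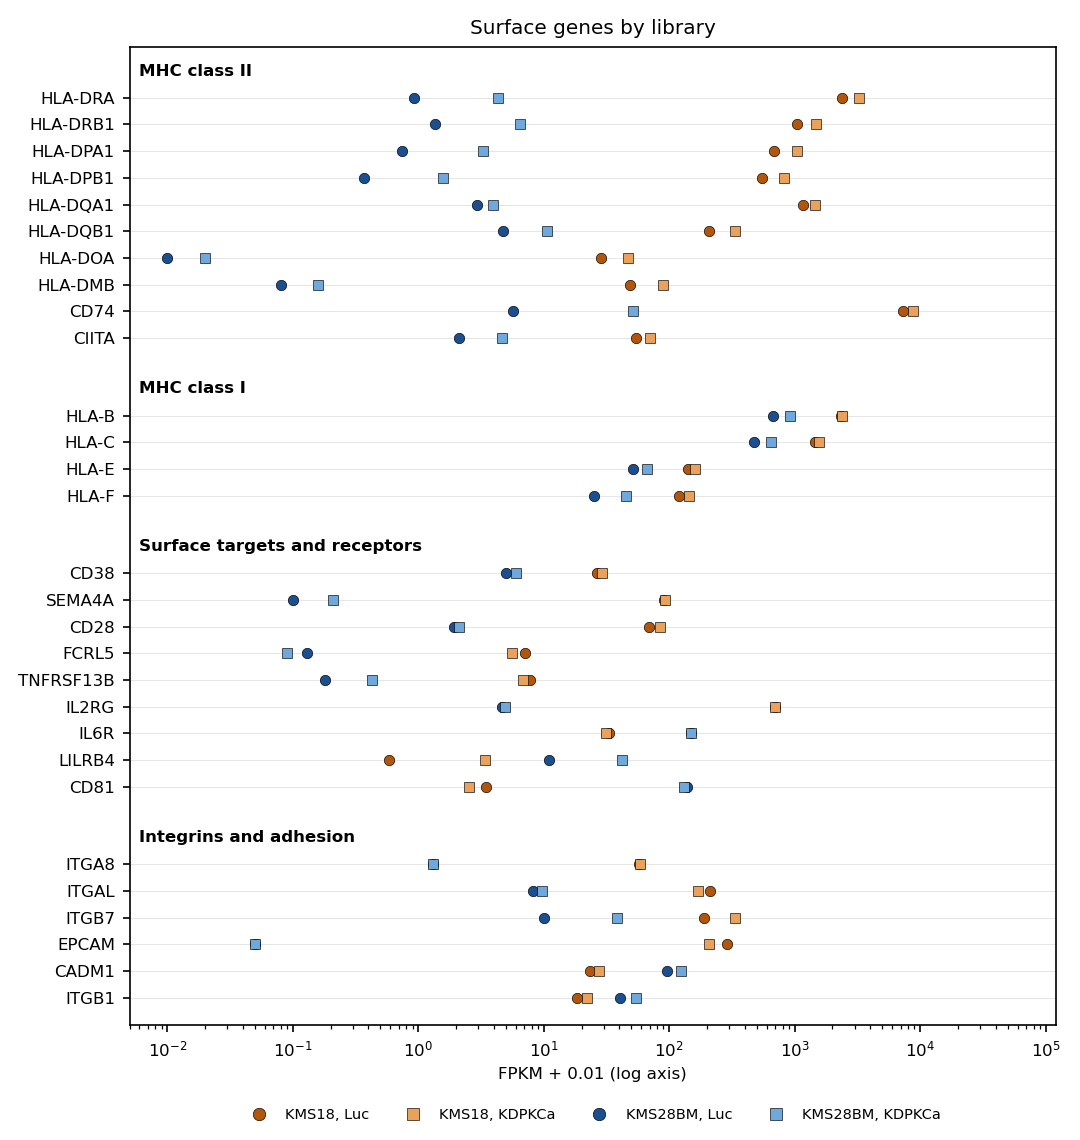
FPKM plus 0.01 on a log axis for surface genes; each point is 1 library, with KMS18 in brown, KMS28BM in blue, Luc as circles and KDPKCa as squares, and a value of 0 is drawn at 0.01. The class II genes sit far to the left in KMS28BM, whereas the class I genes stay between 25.1 and 916 FPKM there.

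Several antigens in use or in trial as myeloma targets were lower in KMS28BM: 13 of 25 tested were lower and 7 higher, 40% of them by 4-fold. CD38, the target of daratumumab and an NAD-consuming ectoenzyme, stood at 26.4 and 29.2 FPKM in KMS18 against 4.99 and 5.99 in KMS28BM (-2.82 ± 0.11, adjusted p = 2.28e-06). SEMA4A, a semaphorin, stood at 90.8 and 92.0 FPKM in KMS18 against 0.09 and 0.20 in KMS28BM (-9.72 ± 0.17, adjusted p = 2.52e-07). CD28, a costimulatory receptor also found on myeloma cells, stood at 68.6 and 84.0 FPKM in KMS18 against 1.90 and 2.11 in KMS28BM (-5.49 ± 0.12, adjusted p = 3.36e-07). All 3 were separated without overlap. FCRL5, an Fc receptor-like protein, stood at 7.08 and 5.55 FPKM in KMS18 against 0.12 and 0.08 in KMS28BM (-5.59 ± 0.21, adjusted p = 2.44e-06). TNFRSF13B, the receptor TACI, stood at 7.79 and 6.78 FPKM in KMS18 against 0.17 and 0.42 in KMS28BM (-4.84 ± 0.35, adjusted p = 3.72e-05). TNFRSF17, the receptor BCMA, was lower within each construct at 376 and 247 FPKM in KMS18 against 190.3 and 124 in KMS28BM (-1.08 ± 0.09, adjusted p = 8.92e-05), and its call was lost without the Luc library of KMS18 and without the KDPKCa library of KMS28BM (adjusted p = 0.137 and 0.12). LILRB4, an inhibitory receptor, was higher at 0.57 and 3.41 FPKM in KMS18 against 11.1 and 41.7 in KMS28BM (3.80 ± 0.21, adjusted p = 1.2e-05).

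Integrins anchor plasma cells to marrow matrix and stroma, and 11 of 19 tested were lower against 4 higher. ITGA8 stood at 57.8 and 58.7 FPKM in KMS18 against 1.29 and 1.29 in KMS28BM (-5.73 ± 0.12, adjusted p = 2.87e-07). ITGAL, the alpha chain of LFA-1, stood at 212 and 170.3 FPKM in KMS18 against 8.21 and 9.66 in KMS28BM (-4.43 ± 0.13, adjusted p = 9.75e-07). ITGB7, a beta chain highly expressed in some myelomas, stood at 189.9 and 332 FPKM in KMS18 against 10.1 and 38.2 in KMS28BM (-3.76 ± 0.25, adjusted p = 2.66e-05). ITGA4, the alpha chain of VLA-4, was lower to a smaller degree (-1.08 ± 0.11, adjusted p = 0.00019), and its partner ITGB1 was higher at 18.5 and 22.0 FPKM in KMS18 against 40.9 and 54.7 in KMS28BM (1.22 ± 0.09, adjusted p = 4.89e-05). The 11 fell to 7 with limma on FPKM.

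Among other adhesion genes, 12 of 26 were higher (8 or 9 with any 1 library left out) and 10 lower, and 42.3% passed 4-fold. EPCAM, an epithelial adhesion molecule, stood at 289.9 and 207 FPKM in KMS18 against 0.04 and 0.04 in KMS28BM (adjusted p = 2.52e-07). It lies at chr2:47345158-47387601 (GENCODE, GRCh38), and its neighbour CALM2 was expressed in all 4 libraries (at least 183 FPKM). CD81, a tetraspanin of the B cell coreceptor, was near 0 in neither line but far higher in KMS28BM at 3.43 and 2.55 FPKM in KMS18 against 139 and 130.2 in KMS28BM (5.56 ± 0.13, adjusted p = 4.07e-07). CADM1, an immunoglobulin superfamily adhesion molecule, was higher at 23.4 and 27.4 FPKM in KMS18 against 96.8 and 125 in KMS28BM (2.01 ± 0.10, adjusted p = 7.59e-06). ESAM, an endothelial-type adhesion molecule, was lower at 74.3 and 60.9 FPKM in KMS18 against 3.58 and 2.36 in KMS28BM (-4.64 ± 0.13, adjusted p = 6.63e-07).

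Receptors for marrow signals also moved. CXCR4, the receptor that retains plasma cells in marrow, was lower at 120.0 and 94.2 FPKM in KMS18 against 40.8 and 48.4 in KMS28BM (-1.34 ± 0.15, adjusted p = 0.000267). CCR10, the homing receptor of IgA plasma cells, stood at 41.7 and 42.9 FPKM in KMS18 against 3.36 and 5.21 in KMS28BM (-3.45 ± 0.16, adjusted p = 5.56e-06). ACKR3, a scavenging receptor for the CXCR4 ligand, was higher at 0.12 and 0.68 FPKM in KMS18 against 7.31 and 7.66 in KMS28BM (4.30 ± 0.38, adjusted p = 9.06e-05). IL2RG, the common gamma chain of the receptors for interleukins such as IL-2 and IL-21, stood at 694 and 694 FPKM in KMS18 against 4.66 and 4.86 in KMS28BM (-7.29 ± 0.13, adjusted p = 2.52e-07). IL6R, the receptor chain for interleukin 6, the main myeloma growth cytokine, was higher at 33.0 and 31.1 FPKM in KMS18 against 149 and 149.5 in KMS28BM (2.19 ± 0.11, adjusted p = 7.86e-06). IL21R moved the same way at 3.62 and 3.89 FPKM in KMS18 against 12.3 and 18.4 in KMS28BM (1.83 ± 0.15, adjusted p = 7.4e-05). Within each line the 2 libraries gave nearly the same value for IL2RG and IL6R. Over the cytokine receptor list, 5 of 20 were higher and 8 lower, and 35% passed 4-fold against 17.7% of all genes.

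Signalling genes. The NF-kB list was lower in the main: 18 of 30 tested were lower and 4 higher, with a median of -0.68. Its 4-fold share was 13.3%, against 17.7% of all genes. TNFAIP3, the ubiquitin editing enzyme A20 that restrains NF-kB and is itself an NF-kB target, stood at 338 and 377 FPKM in KMS18 against 8.43 and 15.2 in KMS28BM (-5.10 ± 0.22, adjusted p = 4.81e-06). IKBKE, a kinase of the pathway, stood at 28.1 and 32.8 FPKM in KMS18 against 6.07 and 7.17 in KMS28BM (-2.41 ± 0.10, adjusted p = 4.27e-06). SQSTM1, the signalling and autophagy adaptor p62, stood at 100.2 and 83.5 FPKM in KMS18 against 33.0 and 33.4 in KMS28BM (-1.60 ± 0.10, adjusted p = 2.54e-05). BIRC3, an inhibitor of apoptosis that keeps the noncanonical kinase NIK low, was near 0 in KMS18 instead, with 0.01 and 0.01 FPKM in KMS18 against 5.01 and 6.15 in KMS28BM (adjusted p = 1.15e-06). Its neighbour BIRC2, which acts with it, showed the same pattern, with 0.08 and 0.04 FPKM in KMS18 against 4.03 and 3.89 in KMS28BM (adjusted p = 4.82e-06). BIRC3 lies at chr11:102317450-102339403 and BIRC2 at chr11:102347211-102378670 (GENCODE, GRCh38). The nearest protein-coding genes at 1 FPKM or more in any library were CEP126 on 1 side and TMEM123 on the other. They did not pass the test between lines (adjusted p = 0.116 and 0.237). Genes below that level were not looked at here. CHUK, a kinase of both NF-kB branches, was higher (1.30 ± 0.10, adjusted p = 6.1e-05). TRAF3, another brake on NIK, stood at 27.1 and 30.0 FPKM in KMS18 against 26.2 and 32.8 in KMS28BM (adjusted p = 0.14). BIRC2 and TRAF3 were named after their values were seen. Leaving out any 1 library left 10 to 13 members called lower.

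The TNF family list was near the background in calls, with 10 of 24 lower and 6 higher. Its share called was 66.7%, against 62.9% of all genes. LTB and LTA, which form lymphotoxin, stood at 42.1 and 39.0 FPKM in KMS18 against 0.67 and 0.23 in KMS28BM (-6.64 ± 0.32, adjusted p = 6.6e-06) and at 22.2 and 13.6 FPKM in KMS18 against 0.54 and 0.79 in KMS28BM (-4.79 ± 0.31, adjusted p = 2.44e-05). CD70, the ligand of CD27, stood at 20.5 and 26.5 FPKM in KMS18 against 0.44 and 1.43 in KMS28BM (-4.72 ± 0.30, adjusted p = 2.3e-05). TNFRSF1B, the second TNF receptor, was higher at 12.3 and 15.6 FPKM in KMS18 against 37.7 and 59.1 in KMS28BM (1.68 ± 0.11, adjusted p = 2.66e-05) and TNFRSF1A, the first, was lower (-1.58 ± 0.11, adjusted p = 3.8e-05).

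The JAK-STAT list was lower with 16 of 24 members against 2 higher. JAK3, the kinase bound to the common gamma chain IL2RG, stood at 13.5 and 23.4 FPKM in KMS18 against 0.03 and 0.03 in KMS28BM (-9.06 ± 0.20, adjusted p = 2.87e-07), so both partners were low in KMS28BM. PTPN6, the phosphatase SHP-1, stood at 162 and 126 FPKM in KMS18 against 12.8 and 10.6 in KMS28BM (-4.69 ± 0.11, adjusted p = 3.94e-07). STAT6, the transducer of interleukin 4 signals, was higher at 2.30 and 4.48 FPKM in KMS18 against 18.2 and 23.8 in KMS28BM (2.67 ± 0.18, adjusted p = 2.9e-05), although IL4R, a chain of that receptor, was lower at 6.40 and 6.95 FPKM in KMS18 against 1.28 and 0.94 in KMS28BM (-2.71 ± 0.20, adjusted p = 3.96e-05). Interferon response genes were lower with 16 of 31 and higher with 6. IFI16, a DNA sensor, stood at 68.7 and 80.3 FPKM in KMS18 against 15.7 and 16.2 in KMS28BM (-2.29 ± 0.11, adjusted p = 5.72e-06). XAF1, an interferon-induced proapoptotic factor, stood at 6.07 and 10.6 FPKM in KMS18 against 0.08 and 0.57 in KMS28BM (-4.81 ± 0.37, adjusted p = 4.88e-05). IFITM1, a restriction factor, was higher at 0 and 0.06 FPKM in KMS18 against 6.46 and 10.2 in KMS28BM (adjusted p = 4.22e-05). Leaving out a library left 8 to 10 JAK-STAT members and 10 to 13 interferon genes called lower, and the interferon count was 6 with limma on FPKM without a filter.

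In the list of cell cycle entry regulators 10 of 24 were lower in KMS28BM (4 to 6 with any 1 library left out) and 5 higher, and its CDK inhibitors went both ways. CDKN1B, the CDK inhibitor p27, stood at 49.1 and 40.6 FPKM in KMS18 against 0.01 and 0.04 in KMS28BM (adjusted p = 3.72e-07). RB1, the retinoblastoma protein that holds cells in G1, stood at 15.6 and 13.6 FPKM in KMS18 against 0.12 and 0.41 in KMS28BM (-7.90 ± 0.23, adjusted p = 7.83e-07). CDKN1A, the CDK inhibitor p21, stood at 16.9 and 18.3 FPKM in KMS18 against 1.33 and 2.05 in KMS28BM (-3.48 ± 0.16, adjusted p = 5.34e-06). In each of the 3 the lines were far apart. CDKN2C, the CDK inhibitor p18, was higher at 117 and 94.0 FPKM in KMS18 against 169 and 164 in KMS28BM (0.61 ± 0.11, adjusted p = 0.00255), a call lost when any library but the Luc library of KMS18 was left out (adjusted p from 0.111 to 0.195). CDKN2D, the CDK inhibitor p19, was higher at 3.15 and 4.03 FPKM in KMS18 against 4.72 and 7.59 in KMS28BM (0.70 ± 0.21, adjusted p = 0.0216), a call lost when any 1 library was left out (0.0721 to 0.419). CDKN1C, the CDK inhibitor p57, was higher at a low level, 0.06 and 0.20 FPKM in KMS18 against 1.12 and 1.46 in KMS28BM (3.25 ± 0.49, adjusted p = 0.00109), and was named after its values were seen. CDKN1B lies at chr12:12715058-12722371, and the next expressed genes on either side, CREBL2 and APOLD1, were both called lower in KMS28BM, by unequal amounts. CREBL2 stood at 4.59 and 4.63 FPKM in KMS18 against 3.13 and 2.70 in KMS28BM (-0.70 ± 0.14, adjusted p = 0.00394), a call lost when any 1 library was left out (adjusted p from 0.0602 to 0.163). APOLD1 stood at 1.36 and 1.30 FPKM in KMS18 against 0.07 and 0.08 in KMS28BM (-3.86 ± 0.37, adjusted p = 0.000131). DUSP16, the gene beyond CREBL2, was also low in KMS28BM at 6.14 and 5.94 FPKM in KMS18 against 0.22 and 0.32 in KMS28BM (-4.54 ± 0.17, adjusted p = 2.38e-06), whereas DDX47, which overlaps the end of APOLD1, did not pass the test at 18 and 19.1 FPKM in KMS18 against 19.2 and 19.2 in KMS28BM (adjusted p = 0.753). RB1 lies at chr13:48303726-48599436 between ITM2B and FNDC3A. ITM2B was lower at 209 and 227 FPKM in KMS18 against 82.3 and 101 in KMS28BM (-1.33 ± 0.10, adjusted p = 4.78e-05), and FNDC3A did not pass the test at 28.3 and 24.1 FPKM in KMS18 against 33.4 and 26.3 in KMS28BM (adjusted p = 0.457). RCBTB2, which lies within the span of RB1, did not pass the test either. Coordinates are GENCODE on GRCh38, and these neighbours were named after their values were seen.

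Genes of G2 and mitosis were higher with 19 of 25 against 1 lower, at a median of 0.62 and with none at 4-fold. UBE2C, a ubiquitin carrier of the anaphase promoting complex, stood at 70.1 and 60.6 FPKM in KMS18 against 174 and 169 in KMS28BM (1.30 ± 0.10, adjusted p = 4.6e-05). CDC20, its activator, stood at 50.4 and 43.0 FPKM in KMS18 against 114 and 124 in KMS28BM (1.26 ± 0.11, adjusted p = 0.000106). KIF11, the spindle motor Eg5, stood at 12.6 and 9.88 FPKM in KMS18 against 28.3 and 28.1 in KMS28BM (1.25 ± 0.11, adjusted p = 0.000104). S phase genes were higher with 15 of 27 against 3, at a median of 0.33. These shifts were small: leaving out any 1 library left 3 to 13 mitosis genes and 0 to 7 S phase genes called higher. The BCL2 family had 7 of 19 higher and 7 lower, and 2 to 6 and 3 to 5 with any 1 library left out. Its share called was 73.7%, against 62.9% of all genes. MCL1, the survival protein that plasma cells need, was lower at 121 and 84.0 FPKM in KMS18 against 51.2 and 38.3 in KMS28BM (-1.30 ± 0.10, adjusted p = 4.54e-05). BCL2L1, which encodes BCL-XL, was likewise lower at 50.6 and 48.7 FPKM in KMS18 against 21.6 and 23.5 in KMS28BM (-1.22 ± 0.10, adjusted p = 6.84e-05). BNIP3, a mitophagy receptor induced by hypoxia, was higher at 3.08 and 2.65 FPKM in KMS18 against 22.1 and 15.9 in KMS28BM (2.48 ± 0.13, adjusted p = 1.04e-05).

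The TGF-beta and BMP list was higher with 16 of 33 against 6 lower, and 10 were higher by 4-fold. Counts of higher members were 11 to 13 with any 1 library left out and 9 with limma on log2(FPKM + 1) without a filter. SMAD1, a transducer of BMP signals, stood at 0.05 and 0.19 FPKM in KMS18 against 8.07 and 8.84 in KMS28BM (6.29 ± 0.37, adjusted p = 1.51e-05). SMAD3, a transducer of TGF-beta signals, stood at 1.81 and 2.26 FPKM in KMS18 against 10.3 and 15.5 in KMS28BM (2.79 ± 0.16, adjusted p = 1.29e-05). INHBE, an activin chain, stood at 20.8 and 9.65 FPKM in KMS18 against 87.8 and 78.6 in KMS28BM (2.54 ± 0.21, adjusted p = 6.34e-05). BAMBI, a decoy receptor, stood at 1.72 and 2 FPKM in KMS18 against 8.84 and 13.0 in KMS28BM (2.45 ± 0.17, adjusted p = 3.36e-05). TGFBR2, the ligand-binding TGF-beta receptor, went the other way at 18.3 and 33.7 FPKM in KMS18 against 2.55 and 3.74 in KMS28BM (-3.10 ± 0.13, adjusted p = 3.46e-06).

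Notch genes were split, with 7 of 19 higher, 8 lower and 63.2% at 4-fold. JAG1, a ligand, was higher at 0.33 and 0.47 FPKM in KMS18 against 5.48 and 7.68 in KMS28BM (4.03 ± 0.18, adjusted p = 4.95e-06). HES6, a transcription factor of the Hairy family, was likewise higher at 0.73 and 1.18 FPKM in KMS18 against 9.13 and 11.3 in KMS28BM (3.33 ± 0.22, adjusted p = 2.79e-05). MFNG, a fringe glycosyltransferase that tunes the receptor for its ligands, stood at 50.6 and 44.5 FPKM in KMS18 against 0 in both KMS28BM libraries, at least 1004-fold lower on the 3-count floor. HEY1, a target, stood at 5.16 and 5.11 FPKM in KMS18 against 0.24 and 0.12 in KMS28BM (-5.12 ± 0.33, adjusted p = 2.52e-05). In the WNT list, 11 of 31 were higher and 10 lower, with 67.7% called against 62.9% of all genes. WNT5B was lower at 67.8 and 64.7 FPKM in KMS18 against 8.45 and 8.51 in KMS28BM (-3.05 ± 0.11, adjusted p = 1.91e-06). LEF1, a nuclear partner of beta-catenin, stood at 80.0 and 81.2 FPKM in KMS18 against 35.1 and 33.9 in KMS28BM (-1.07 ± 0.09, adjusted p = 8.79e-05), and NKD2, an antagonist, stood at 0 in both KMS18 libraries against 13.0 and 16.9 FPKM in KMS28BM, at least 321-fold higher in KMS28BM.

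Receptor tyrosine kinases were higher with 10 of 22 against 6, and 50% passed 4-fold. With any 1 library left out, 5 to 9 were called higher. TYRO3, a receptor for GAS6, stood at 0.45 and 0.17 FPKM in KMS18 against 6.55 and 7.11 in KMS28BM (4.19 ± 0.25, adjusted p = 1.69e-05). EPHB2, an ephrin receptor, stood at 3.31 and 4.68 FPKM in KMS18 against 13.2 and 26.6 in KMS28BM (2.49 ± 0.15, adjusted p = 1.69e-05). INSR, the insulin receptor, stood at 7.53 and 5.95 FPKM in KMS18 against 18.4 and 16.7 in KMS28BM (1.19 ± 0.11, adjusted p = 0.000121). DDR2, a collagen receptor, was lower at 17.2 and 14.9 FPKM in KMS18 against 0.64 and 0.71 in KMS28BM (-4.48 ± 0.14, adjusted p = 1.04e-06). Below the receptors the RAS to ERK cascade was near the background, with 9 of 34 higher, 11 lower (2 to 4 with any 1 library left out) and 8.8% at 4-fold. Of the 3 at 4-fold, RASA2, which switches RAS off, was higher at 0.01 and 0.10 FPKM in KMS18 against 9.29 and 6.18 in KMS28BM (7.59 ± 0.40, adjusted p = 1e-05). RASGRP2, a RAS-family exchanger, was higher at 0.03 and 0.07 FPKM in KMS18 against 2.12 and 1.44 in KMS28BM (5.53 ± 0.63, adjusted p = 0.000313) and was named after its values were seen. RASGRP3, a diacylglycerol-activated RAS exchanger, was lower at 114 and 70.2 FPKM in KMS18 against 27.9 and 18.1 in KMS28BM (-2.18 ± 0.10, adjusted p = 5.03e-06). Among ERK output genes ETV1 was higher at 3.25 and 1.23 FPKM in KMS18 against 44.1 and 39.7 in KMS28BM (4.09 ± 0.23, adjusted p = 1.26e-05) and its relative ETV4 was lower at 13.9 and 10.2 FPKM in KMS18 against 4.13 and 4.10 in KMS28BM (-1.59 ± 0.15, adjusted p = 0.000144).

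The PI3K and AKT list was at the background too, with 8 of 29 higher and 9 lower (3 to 5 with any 1 library left out). DEPTOR, an mTOR inhibitor that myelomas often overexpress, stood at 11.2 and 13.4 FPKM in KMS18 against 64.7 and 116 in KMS28BM (2.74 ± 0.15, adjusted p = 1.18e-05), MTOR at 12.1 and 13.2 FPKM in KMS18 against 40.1 and 44.4 in KMS28BM (1.64 ± 0.10, adjusted p = 1.52e-05). AKT1 stood at 23.2 and 25.7 FPKM in KMS18 against 51.0 and 70.1 in KMS28BM (1.23 ± 0.11, adjusted p = 0.00011), all higher without overlap. SGK1, a kinase related to AKT, was lower at 29.8 and 42.7 FPKM in KMS18 against 5.57 and 10.8 in KMS28BM (-2.17 ± 0.17, adjusted p = 5.88e-05). In the list of PKC and diacylglycerol signalling, 9 of 29 were higher and 11 lower (7 with any 1 library left out). Its share called was 69.0%, against 62.9% of all genes. PRKCZ, an atypical PKC, stood at 7.56 and 10.4 FPKM in KMS18 against 0 in both KMS28BM libraries, at least 214-fold lower on the 3-count floor. PLCG2, the phospholipase below the B cell receptor, stood at 19.9 and 21.3 FPKM in KMS18 against 1.55 and 1.53 in KMS28BM (-3.33 ± 0.11, adjusted p = 1.52e-06). MARCKSL1 and MARCKS, related PKC substrates, went opposite ways: MARCKSL1 stood at 0.10 and 0.33 FPKM in KMS18 against 151 and 175 in KMS28BM (9.48 ± 0.25, adjusted p = 5.88e-07). MARCKS stood at 76.9 and 64.0 FPKM in KMS18 against 31.2 and 28.6 in KMS28BM (-1.32 ± 0.10, adjusted p = 4.35e-05).

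Metabolic genes. Among the metabolic lists cholesterol synthesis had the lowest median (-0.40) and targets of ATF4, described below, the highest (0.80). Most of these lists held few large differences, with a 4-fold share under the 17.7% of all genes. That share was 2.4% for the respiratory chain, 4% for the unfolded protein response, 6.2% for the TCA cycle and 8.3% for glycolysis. Only the lists of ATF4 targets (33.3%), NRF2 and glutathione genes (22.6%) and amino acid transporters (18.2%) were above 17.7%. In the glycolysis list 10 of 24 were higher (2 to 5 with any 1 library left out) and 6 lower. ENO1, the main enolase, stood at 434 and 342 FPKM in KMS18 against 1699 and 1448 in KMS28BM (1.93 ± 0.11, adjusted p = 1.62e-05). ENO2, the neuronal form, was lower at 6.97 and 3.38 FPKM in KMS18 against 0.08 and 0.14 in KMS28BM (-5.98 ± 0.30, adjusted p = 8.67e-06). ALDOC, an aldolase, moved the same way at 23.1 and 33.0 FPKM in KMS18 against 1.44 and 1.43 in KMS28BM (-4.36 ± 0.17, adjusted p = 3e-06). In the pentose phosphate pathway PGD, an NADPH-producing step, was higher at 57.2 and 62.0 FPKM in KMS18 against 198 and 231 in KMS28BM (1.75 ± 0.10, adjusted p = 1.3e-05) and TKT, a transketolase, lower at 166 and 179 FPKM in KMS18 against 89.7 and 92.5 in KMS28BM (-0.97 ± 0.10, adjusted p = 0.000159). ENO1 and PGD, like MTOR, lie on the short arm of chromosome 1, in the stretch with the highest running median given below.

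Genes of the TCA cycle and pyruvate oxidation were higher with 18 of 32 against 8, at a median of 0.40. SDHB and SDHC, subunits of succinate dehydrogenase, stood at 48.6 and 48.2 FPKM in KMS18 against 191 and 202 in KMS28BM (1.92 ± 0.10, adjusted p = 8.32e-06) and at 65.6 and 61.6 FPKM in KMS18 against 195 and 179 in KMS28BM (1.34 ± 0.10, adjusted p = 5.28e-05). ME1, cytosolic malic enzyme and an NRF2 target, stood at 0.01 and 0 FPKM in KMS18 against 25.6 and 17.3 in KMS28BM (adjusted p = 3.96e-07). MPC1, a chain of the mitochondrial pyruvate carrier, was lower at 42.0 and 53.9 FPKM in KMS18 against 12.3 and 21.5 in KMS28BM (-1.67 ± 0.14, adjusted p = 6.29e-05), as was MPC2 (-0.90 ± 0.10, adjusted p = 0.000282). Nuclear genes of the respiratory chain were higher with 21 of 42 against 7, at a median of 0.28. NDUFS8 (1.41 ± 0.10, adjusted p = 3.63e-05) and NDUFA10 (1.13 ± 0.10, adjusted p = 9.06e-05) of complex I were among them, and NDUFA9 of the same complex was lower (-1.10 ± 0.10, adjusted p = 0.000102). Mitochondrially encoded transcripts were mostly without a call, 4 of 12. With any 1 library left out, 7 to 10 TCA genes and 5 to 9 respiratory chain genes were called higher.

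**Figure D4:**
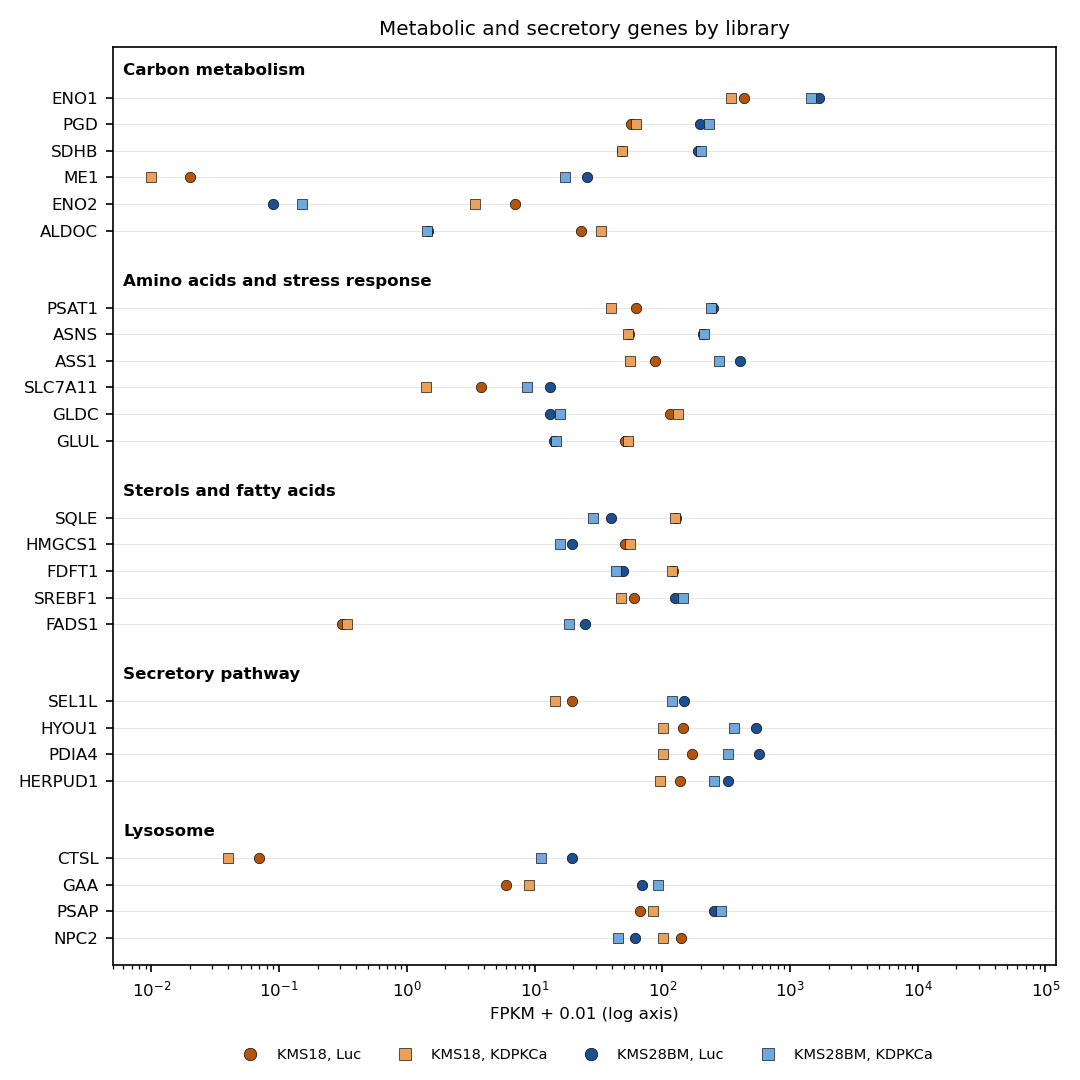
FPKM plus 0.01 on a log axis for metabolic and secretory genes; each point is 1 library, with KMS18 in brown, KMS28BM in blue, Luc as circles and KDPKCa as squares, and a value of 0 is drawn at 0.01. ME1, FADS1 and CTSL are near 0 in KMS18, and the sterol enzymes SQLE, HMGCS1 and FDFT1 sit to the left in KMS28BM.

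Cholesterol synthesis had 17 of 28 lower and 3 higher at a median of -0.40, and 10.7% passed 4-fold. SQLE, squalene epoxidase, stood at 128 and 126 FPKM in KMS18 against 39.3 and 28.4 in KMS28BM (-2.03 ± 0.13, adjusted p = 2.63e-05). HMGCS1, which makes the substrate of HMG-CoA reductase, stood at 51.4 and 56.0 FPKM in KMS18 against 19.5 and 15.9 in KMS28BM (-1.76 ± 0.11, adjusted p = 1.84e-05). FDFT1, squalene synthase, stood at 122 and 119.6 FPKM in KMS18 against 49.3 and 43.6 in KMS28BM (-1.47 ± 0.10, adjusted p = 3.1e-05). SREBF1, a regulator of lipid synthesis, was higher at 60.3 and 47.7 FPKM in KMS18 against 126 and 146 in KMS28BM (1.43 ± 0.12, adjusted p = 7.98e-05). In the fatty acid list, near the background with 11 of 33 higher and 7 lower, FADS1, a desaturase of polyunsaturated fatty acids, stood at 0.30 and 0.33 FPKM in KMS18 against 24.9 and 18.7 in KMS28BM (6.86 ± 0.17, adjusted p = 4.38e-07). Leaving out any 1 library left 8 to 11 sterol genes called lower and 4 to 6 fatty acid genes called higher.

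Transcripts of genes for amino acid supply were higher at several points, in 4 lists that share members. PSAT1, ASNS and SLC7A11, for example, count in the ATF4 list and again in another. Transporters were higher with 13 of 22 against 3, serine, glycine and one-carbon enzymes with 12 of 23 against 3, the glutamine to arginine group with 13 of 24 against 4, and targets of ATF4, the factor of the amino acid response, with 12 of 21 against 5. With any 1 library left out, these 4 lists had 6 to 9, 5 to 10, 8 to 11 and 9 to 11 members called higher. PSAT1, a serine synthesis enzyme, stood at 62.7 and 39.5 FPKM in KMS18 against 247 and 242 in KMS28BM (2.22 ± 0.16, adjusted p = 4.09e-05). ASNS, asparagine synthetase, stood at 55.3 and 53.6 FPKM in KMS18 against 207 and 212 in KMS28BM (1.82 ± 0.10, adjusted p = 1.19e-05). ASS1, argininosuccinate synthase, stood at 87.7 and 56.1 FPKM in KMS18 against 403 and 279 in KMS28BM (2.17 ± 0.10, adjusted p = 6.05e-06). SLC7A11, the cystine importer, stood at 3.79 and 1.41 FPKM in KMS18 against 13.3 and 8.74 in KMS28BM (2.17 ± 0.16, adjusted p = 4.25e-05). SLC36A4, an amino acid transporter, stood at 0.03 and 0.03 FPKM in KMS18 against 14.9 and 13.7 in KMS28BM (adjusted p = 1.46e-06). Against this trend GLDC, the glycine cleavage enzyme, was lower at 115 and 134 FPKM in KMS18 against 13.2 and 15.8 in KMS28BM (-3.21 ± 0.10, adjusted p = 1.22e-06). GLUL, glutamine synthetase, moved the same way at 51.4 and 53.7 FPKM in KMS18 against 14.2 and 14.8 in KMS28BM (-1.86 ± 0.12, adjusted p = 2.33e-05). SRM, spermidine synthase and another gene of the chromosome 1 short arm, was higher at 178 and 148 FPKM in KMS18 against 630.5 and 606 in KMS28BM (1.84 ± 0.10, adjusted p = 1.21e-05).

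The unfolded protein response list, which serves antibody secretion, was higher with 17 of 25 against 3, at a median of 0.75. Immunoglobulin genes, taken without IGLL5, had a smaller share of the counts in KMS28BM. SEL1L, of the degradation complex of the endoplasmic reticulum, stood at 19.5 and 14.3 FPKM in KMS18 against 147 and 118 in KMS28BM (2.91 ± 0.11, adjusted p = 2.19e-06). HYOU1, a chaperone, stood at 146 and 101 FPKM in KMS18 against 537 and 366 in KMS28BM (1.75 ± 0.11, adjusted p = 2.05e-05). PDIA4, a disulfide isomerase, stood at 171 and 102 FPKM in KMS18 against 573 and 328 in KMS28BM (1.63 ± 0.11, adjusted p = 2.42e-05). For HYOU1 and PDIA4 the Luc library was above the KDPKCa library in both lines. The count was 6 to 15 with any 1 library left out. Lysosomal genes were higher with 18 of 30 against 8 and 7 to 10 with a library left out. CTSL, the protease cathepsin L, stood at 0.06 and 0.03 FPKM in KMS18 against 19.5 and 11.2 in KMS28BM (adjusted p = 1.43e-06). GAA, acid alpha-glucosidase, stood at 5.92 and 8.96 FPKM in KMS18 against 69.6 and 92.7 in KMS28BM (3.78 ± 0.14, adjusted p = 2.55e-06). PSAP, the saposin precursor, stood at 66.4 and 84.5 FPKM in KMS18 against 256 and 286 in KMS28BM (1.79 ± 0.11, adjusted p = 1.72e-05). NPC2, a cholesterol carrier, was lower at 139 and 102 FPKM in KMS18 against 61.6 and 44.7 in KMS28BM (-1.21 ± 0.10, adjusted p = 7.09e-05). In the NRF2 and glutathione list, with 13 of 31 higher (7 to 10 with any 1 library left out) and 7 lower, PRDX1, a peroxiredoxin, was higher at 188 and 152 FPKM in KMS18 against 523 and 418 in KMS28BM (1.39 ± 0.10, adjusted p = 3.26e-05) and NFE2L2, which encodes NRF2, was lower (-0.93 ± 0.10, adjusted p = 0.000242).

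Genes present in 1 line and absent in the other. At 5 FPKM or more in both libraries of 1 line and under 0.1 FPKM in both of the other, 59 genes were present in KMS28BM alone (0.468% of 12598) and 84 in KMS18 alone (0.667%). On the X chromosome lay 15 of the 84 and 6 of the 59, beside 521 of the 14870 tested genes. Of the 15, 8 were members of the cancer-testis list, some of them near copies of each other. The genes that follow led by difference within each construct, a rule without the limit of 0.1 FPKM. Of those named as higher in KMS28BM, RAB33A alone is among the 59. EMP3, a membrane protein, stood at 0.67 and 0.83 FPKM in KMS18 against 181 and 195 in KMS28BM (7.57 ± 0.15, adjusted p = 2.53e-07). DBN1, the actin-binding protein drebrin, stood at 0.04 and 0.12 FPKM in KMS18 against 121 and 96.6 in KMS28BM (10.08 ± 0.32, adjusted p = 1.13e-06). KIF1A, a neuronal transport motor, stood at 0.09 and 0.21 FPKM in KMS18 against 85.3 and 102 in KMS28BM (11.21 ± 0.29, adjusted p = 5.25e-07). IGF2BP3, a fetal RNA-binding protein, stood at 0.03 and 0.21 FPKM in KMS18 against 76.2 and 59.2 in KMS28BM (10.57 ± 0.26, adjusted p = 4.12e-07). RAB33A, a small GTPase, stood at 0 in both KMS18 libraries against 40.1 and 68.4 FPKM in KMS28BM, at least 612-fold higher. SELENOH, a nuclear selenoprotein, stood at 0.79 and 0.85 FPKM in KMS18 against 95.7 and 107 in KMS28BM (6.32 ± 0.15, adjusted p = 3.94e-07). On the lower side PPDPF stood at 144 and 168 FPKM in KMS18 against 0.03 and 0.09 in KMS28BM (adjusted p = 2.52e-07) beside EPCAM, CTAG2 and the HLA and immunoglobulin genes above. Each of these genes was separated by line in all 4 libraries. They were picked by a large difference within each construct, so this separation is not a separate result.

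Position along the chromosomes. The tested genes of chromosome 10 had a median log2 difference of 0.77 (63.4% called higher, 10.1% lower) and those of chromosome 14 of 0.63 (56.9% higher). Chromosome 3 (-0.61, 55.1% called lower), the X chromosome (-0.50, 53% lower) and chromosome 8 (-0.43, 50.1% lower) were on the other side. The medians within the Luc pair and within the KDPKCa pair were close, at 0.80 and 0.72 for chromosome 10 and -0.58 and -0.61 for chromosome 3. The gap between the constructs did not exceed 0.09 on any of the 23 chromosomes tested. Over windows of 41 neighbouring tested genes, the highest running median was 1.87, at chr1:6785324-11754802 from CAMTA1 to AGTRAP, where 41 of 41 genes were above 0 and 36 were called higher. Next came further windows of chromosome 1, from CDK11A to PHF13 (1.69), from SPATA21 to RAP1GAP (1.47) and from MTCO1P12 to MMP23B (1.37). A window of chromosome 17 from ELAC2 to ALKBH5 reached 1.29, and 1 of chromosome 14 from FOS to KCNK13 reached 1.29. The lowest was -2.94, from ARHGEF6 to MAGEA1 on the X chromosome, where 36 of 41 were called lower. A window at the start of the short arm of chromosome 12, which holds CCND2, stood at -1.63 with 34 of 41 called lower. A window of chromosome 6 from RNF146 to HECA, which holds TNFAIP3, stood at -1.54. Position is given above for some named genes only, so others may lie in such stretches. Whether these stretches differ in DNA copies was not tested.

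**Figure D5:**
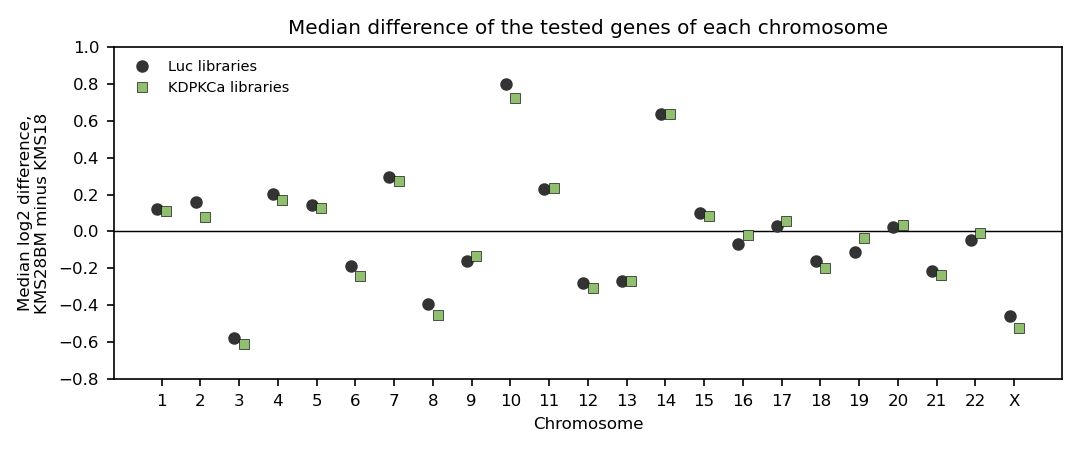
Median log2 difference, KMS28BM minus KMS18, of the tested genes of each chromosome, with 1 point for the Luc pair of libraries and 1 for the KDPKCa pair. Chromosomes 10 and 14 lie highest and chromosomes 3, X and 8 lowest in both pairs.

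Zinc finger genes of chromosome 19 formed the other low stretches. Windows from ZNF14 to RPSAP58, from SIGLEC22P to ZNF347 and from ZNF887P to RNASEH2A had running medians of -2.84, -2.54 and -1.85. Of 230 tested genes on chromosome 19 whose symbol is ZNF and a number, 140 were lower in KMS28BM (60.9%) and 19 higher, 79 of them lower by 4-fold, with a median of -1.01. Of 237 such genes elsewhere 91 were lower (38.4%), with a median of -0.11, and the other 807 genes of chromosome 19 had a median of 0.09. This count was made after the windows were seen, and many of these genes are near copies of each other.

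Runs of at least 3 neighbouring protein-coding genes, counted among those at 1 FPKM or more in any library, that were silent in 1 line and present in the other numbered 10, and in all 10 the silent line was KMS28BM. Silent means here that both libraries of a line lay under 0.1 times the lowest value of the other line, itself 1 FPKM or more. On chromosome 19 they were ZNF441, ZNF440 and ZNF69, then ZNF43, ZNF208, ZNF257 and ZNF98, then ZNF577, ZNF649 and ZNF613. ZNF649 stood at 2.14 and 2.49 FPKM in KMS18 against 0 in both KMS28BM libraries and ZNF69 at 6.24 and 5.93 FPKM in KMS18 against 0.02 and 0 in KMS28BM. The HLA class II genes gave 2 runs on chromosome 6, and GAGE and PAGE genes gave 2 on the X chromosome. A further X run held LDOC1 (30.0 and 51.5 FPKM in KMS18 against 0 in both KMS28BM libraries) with MAGEC1 and MAGEC2. On chromosome 12 GTSF1, a factor of small RNA silencing in germ cells, stood at 79.3 and 72.7 FPKM in KMS18 against 0 in both KMS28BM libraries, at least 682-fold lower on the 3-count floor, beside NCKAP1L, a haematopoietic actin regulator, at 11.7 and 16.1 FPKM in KMS18 against 0.02 and 0.04 in KMS28BM (-9.42 ± 0.22, adjusted p = 3.94e-07) and PDE1B. On chromosome 9 the run was DPP7, GRIN1 and LRRC26, with LRRC26 at 15.3 and 22.7 FPKM in KMS18 against 0 in both KMS28BM libraries. GAGE and PAGE genes are near copies, so their single values are uncertain.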

How the data were processed

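Total RNA of 4 libraries (2 lines, 2 constructs) was sequenced after preparation with a TruSeq RNA v2 kit, per the labels' protocols. That kit does not mark strand, so overlapping and antisense genes cannot be told apart. Per the file headers, the authors deposited expected counts and FPKM per gene identifier, and per the submitters' processing notes the tools included STAR, Bowtie2 and HISAT with GRCh37 and hg19. No source used here says which of these made the tables. Counts and FPKM were summed over 23844 identifiers to 22187 symbols, an absent gene was taken as 0, and expected counts were rounded. Totals ran from 37940949 to 39507281, so sampling error was small for all but genes near 0.

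The lines were compared with edgeR 4.0.16 (R 4.3.3), TMM scaling, a filter of min.count 10 and a quasi-likelihood test with construct and line in the model, and p-values were adjusted over 14870 genes by Benjamini-Hochberg. This left 1 residual degree of freedom, beside 5.85 from sharing spread across genes. The script was tested on simulated counts. Alternatives were other scalings and filters, DESeq2 1.42.0, limma 3.58.1 on log2(FPKM + 1) and log2(FPKM + 0.1), no covariate, and each library left out.

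Named genes were NSD2, FGFR3 and PRKCA, up to 5 called members per list and direction by size (at least 5 FPKM in any library), the 15 leading genes per direction, and members of silent runs. The text names only some of them. Where a gene was added after its values were seen, the text says so. CALM2, CEP126, TMEM123, FNDC3A and the genes that bound windows were added likewise. Members and lists were chosen with earlier results of these data known. Positions are from GENCODE 29 (GRCh38), for 21019 genes, and were matched by gene identifier, not converted. Where identifiers shared a symbol, the position of the identifier with the most counts was kept.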

Additional observations from a re-analysis of the deposited data

Results flagged for a closer look

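Among the genes with values above, 3 without a call moved in opposite directions in the Luc pair and in the KDPKCa pair of libraries, and the difference between the pairs was not tested. On the log2 scale, KMS28BM minus KMS18, IRF4 stood at -0.20 in the Luc pair and 0.40 in the KDPKCa pair. PRDM1 stood at -0.26 and 0.27. IGLC2 stood at 0.37 and -0.13. Each pair holds 1 library per line.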

How the results depend on the processing

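Of 187 genes named with values, 177 were called, and 166 of these kept their call under all 14 other settings that test single genes, of which the filter of 5 CPM left 5 of the 187 untested. CDKN2C, CDKN2D, CREBL2, FGFR3, KRT8, NSD2, PRKCA, RFXANK, TEX15, TNFRSF17 and XBP1 lost it in at least 1. With 1 library left out, PRKCA ran from -0.90 (without the Luc library of KMS28BM) over -0.12 (without the KDPKCa library of KMS18) to 2.31. XBP1 ran from -0.15 over -0.04, without the same libraries, to 0.88. These runs mix construct into the line difference, and both genes were lower in the KDPKCa library of each line. Leaving out 1 library, with line alone in the model, gave 2249 to 2389 genes higher, 2595 to 2797 lower, 1013 to 1200 higher by 4-fold and 1292 to 1497 lower by 4-fold. With limma on log2(FPKM + 1) and no filter, 2575 genes were called lower. Genes called 4-fold higher and 4-fold lower numbered 516 and 673 with the filter of 5 CPM, 337 and 426 with limma on log2(FPKM + 1), 335 and 420 with limma on log2(FPKM + 1) without a filter, and 765 and 940 with limma on log2(FPKM + 0.1), where the added constant shrinks the fold of low genes. DESeq2 called 3827 genes higher and 3912 lower. The reported model pairs the libraries of the lines by construct. Without that pairing, 3063 genes were called higher and 3459 lower. With 1 library per line and construct, a difference between lines within 1 construct alone has no replicate.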
